A study of Bos taurus and Felis catus with 14 samples.

Results

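The vascular microRNAs described here are the precursors named mir-126, mir-143, mir-145, mir-221 or mir-222 in the predicted bovine and feline sets. They were chosen by name alone, with any letter, copy number or mark for a new member allowed and antisense names left out. This gave 10 of the 1305 predicted loci, 5 of 810 in Bos taurus (cow) and 5 of 495 in Felis catus (cat), so that each family had exactly 1 locus in each species. No locus was named as antisense to any of them.

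In cow, small RNA was sequenced from 10 tissues of 3 Angus steers, with 1 library each. The first steer gave retina, iris, optic nerve, bone marrow, submandibular lymph node, dental pulp, penis (corpus cavernosum) and oral papillae (8 libraries), the second gave brain stem and the third the corium of the hoof. In cat there were 4 libraries, 2 of normal haired skin and 2 of skeletal muscle, from 3 older neutered male domestic short hair cats. The labels name no treatment, and no allele, for any animal. The authors ran miRWoods, which scores stacks of small RNA reads and the hairpins around them with random forests, and deposited 1 call set for cow and 1 for cat, each over all of the libraries, which leaves no replicate. The sets give start, end, strand and name of each precursor and mature product, and no read number. Read numbers of each microRNA and library, which the study tabulated apart from the call sets, were not used here. Abundance was therefore not compared between tissues or animals, the depth behind a locus is not given, and the word vascular rests on what is known of these families and not on a measurement in these tissues.

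A microRNA precursor is an RNA hairpin. Drosha cuts it from the primary transcript and Dicer removes its loop, which leaves a duplex of a 5p product (from the 5′ arm) and a 3p product (from the 3′ arm). The first base of a product fixes its seed, the short stretch that pairs with target mRNAs, so positions of product starts matter more than ends of the precursor. The microRNA mir-126 is known from endothelial cells, where it lies in an intron of EGFL7 and acts on signalling by vascular endothelial growth factor. The microRNAs mir-143 and mir-145 come from 1 primary transcript and are abundant in smooth muscle, where they favour the contractile state. The microRNAs mir-221 and mir-222 are related in sequence, share a seed in their 3p products, and are known to act on KIT and on the cell cycle inhibitor p27 in endothelium and smooth muscle. Sequences of these loci were not analysed here.

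Within their hairpins, the products of all 5 families lay at the same spacing in cow and cat. The distance from the first base of the 5p product to the first base of the 3p product was 37 nt for mir-126, 34 nt for mir-143, 40 nt for mir-145, 40 nt for mir-221 and 38 nt for mir-222 in both species. The products ended in register as well. From the start of the 5p to the end of the 3p product the span was 59 nt for mir-126, 54 nt for mir-143, 61 nt for mir-145 and 62 nt for both mir-221 and mir-222, again with no difference between the species. What differed were the ends of the predicted precursors and 1 product end, as the map of the hairpins shows.

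**Figure D1:**
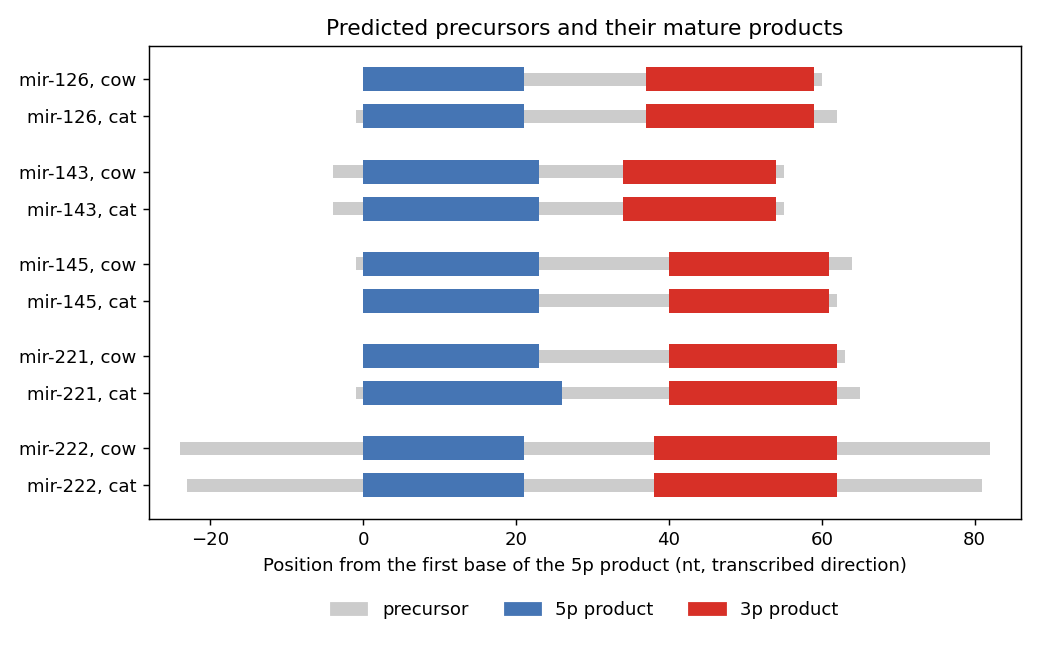
Predicted precursors (grey) with their 5p (blue) and 3p (red) products in cow and cat, drawn to scale, with position in nt from the first base of the 5p product on the horizontal axis. Hairpins are aligned at the start of the 5p product, and the 3p product then starts at the same position in both species. The 5p product of mir-221 is 26 nt long in cat and 23 nt in cow. The precursor of mir-222 reaches beyond its products on both sides.

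The same comparison over all loci that carry 1 matching name in each species gives the background for these counts. Of 192 loci matched by name (these 5 included), 162 had products from both arms in both species, and of these 126 had the same distance between arms in cow and cat (77.8%, 95% exact Clopper-Pearson interval 70.6 to 83.9%), against 5 of 5 here. The span of the products was the same at 118 of the 162 (72.8%, interval 65.3 to 79.5%), again against 5 of 5. Over the 162 loci the difference in this distance, as cow minus cat, ranged from -3 to 4 nt. Equal spacing was thus the usual state of a matched hairpin. Feline names were given by homology to known microRNAs, so agreement between loci of the same name is not independent of the name.

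**Figure D2:**
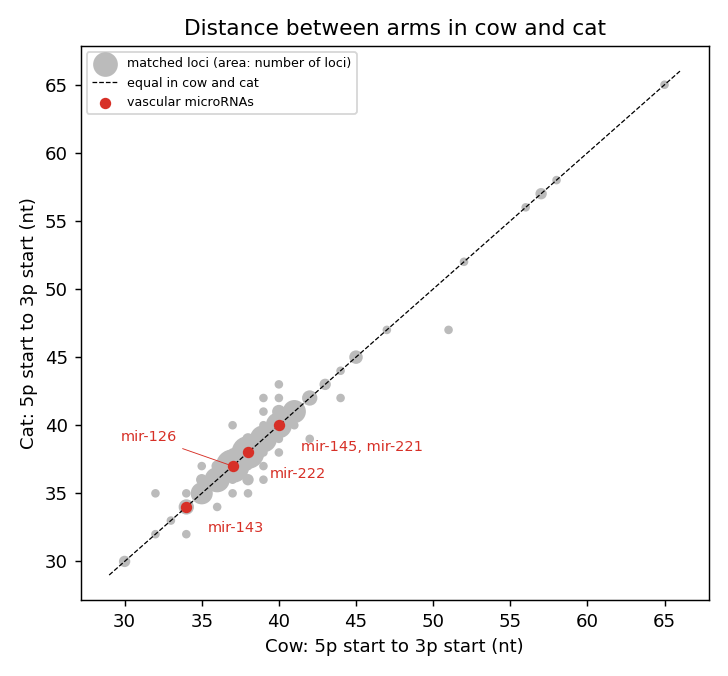
Distance from the start of the 5p product to the start of the 3p product in cow (horizontal axis, nt) and cat (vertical axis, nt) for the 162 loci matched by name with both arms in both species. The grey area grows with the number of loci, the red points are the vascular microRNAs and the dashed line marks equality, on which all 5 lie.

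The endothelial mir-126 stood alone in both genomes. The bovine locus, bta-mir-126, lies on chromosome 11 from 104131417 to 104131476 on the plus strand, with its 5p product (21 nt) at 104131417 to 104131437 and its 3p product (22 nt) at 104131454 to 104131475. The feline locus, fca-mir-126, lies on NC_018735.2 from 92492170 to 92492232 on the minus strand, with its 5p product (21 nt) at 92492211 to 92492231 and its 3p product (22 nt) at 92492173 to 92492194. The precursor was 60 nt long in cow and 63 nt in cat, and the difference lay outside the products, with 1 base more before the 5p and 2 bases more after the 3p product in cat. In both species 16 bases separated the products.

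No other predicted locus lay near mir-126. The nearest in cow was bta-Novel128, a locus without known homology on the opposite strand, 1002906 nt upstream. The nearest in cat was fca-Novel145, on the same strand 4796775 nt downstream. Over all loci the median distance to the nearest predicted locus of the same sequence was 315270 nt in cow and 288847 nt in cat, and 267 of 810 bovine loci (33.0%) and 70 of the 487 feline loci that share a sequence with another (14.4%) were as isolated as mir-126 or more so. RefSeq's genes on ARS-UCD2.0 held 1 gene for each of the 5 bovine names. The call set and that assembly number their bases differently, since the positions overlapped for 0 of the 5, so gene names alone were taken from it. There MIR126 lies inside EGFL7, the gene of an endothelial secreted factor, and the next coding gene is AGPAT2.

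The smooth muscle pair lay in the order mir-143, mir-145 in the transcribed direction in both species, at nearly the same gap. The bovine pair lies on the plus strand of chromosome 7, with bta-mir-143 from 62809321 to 62809379 and bta-mir-145 from 62810747 to 62810811. The feline pair lies on the minus strand of NC_018723.2, with fca-mir-143 from 197831598 to 197831656 and the feline mir-145 locus from 197830160 to 197830221. The gap between the precursors was 1367 nt in cow and 1376 nt in cat, 9 nt or 0.654% shorter in cow. Measured between the starts of the 5p products, which does not depend on the ends of the precursors, the distance was 1423 nt in cow and 1431 nt in cat. Each pair made up a cluster (neighbours at most 10 kb apart) with no other member.

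The hairpin of mir-143 was the same in both species in every length measured. Its precursor had 59 nt, its 5p product 23 nt and its 3p product 20 nt, with 4 bases before the 5p product, 11 bases between the products and 1 base after the 3p product. In cow the products lay from 62809325 to 62809347 and from 62809359 to 62809378, and in cat from 197831630 to 197831652 and from 197831599 to 197831618. The hairpin had the fewest bases between its products of the 5 families, and its distance between arms of 34 nt was short for the sets as well. The median over loci with both arms was 38 nt in each species, and 64 of 587 bovine loci (10.9%) and 31 of 325 feline loci (9.54%) had 34 nt or less. The 3p product of 20 nt was the shortest of the vascular products, and 8.73% of the bovine and 7.68% of the feline products were 20 nt or shorter.

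For mir-145 the precursor was 65 nt in cow and 62 nt in cat. The bovine precursor had 1 base before the 5p and 3 after the 3p product, and the feline precursor had 0 and 1. The products themselves had the same lengths, 23 nt for 5p (62810748 to 62810770 in cow, 197830199 to 197830221 in cat) and 21 nt for 3p (62810788 to 62810808 in cow, 197830161 to 197830181 in cat). Of the 10 loci, feline mir-145 alone had a name marked as new, a mark carried by 90 of the 293 feline loci named after a numbered family. It is the only mir-145 locus of the feline set, so the mark does not stand for an additional copy within that set. For clusters in cat, the paper took the predictions of an earlier feline study as the annotated set. Whether that study lists a mir-145 locus was not checked here. The name of the neighbouring fca-mir-143 has no such mark.

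The nearest locus beyond the mir-143 and mir-145 pair was a mir-378 precursor downstream on the same strand in both species, bta-mir-378-1 in cow and fca-mir-378 in cat. From mir-145 it was 256493 nt away in cow and 256459 nt in cat, a difference of 34 nt. The microRNA mir-378 is known from an intron of PPARGC1B, a coactivator of mitochondrial genes, and RefSeq places the bovine MIR378-1 in that gene. MIR143 and MIR145 lie there inside the uncharacterised long noncoding gene LOC132345768, between the coding genes IL17B and CSNK1A1.

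The pair on the X chromosome had the order mir-222, mir-221 in the transcribed direction in both species. The bovine loci are bta-mir-222 from 103538147 to 103538252 and bta-mir-221 from 103538859 to 103538921, both on the plus strand of chromosome X. The feline loci are fca-mir-222 from 40063856 to 40063959 and fca-mir-221 from 40063127 to 40063192, both on the minus strand of NC_018741.2. The gap was 606 nt in cow and 663 nt in cat, 57 nt or 8.60% shorter in cow. The same 57 nt separated the species when the distance was taken between 5p starts (688 and 745 nt) or between 3p starts (690 and 747 nt), so the difference lies in the stretch between the hairpins and not in where their ends were set.

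The loci nearest to this pair were not the same in cow and cat. From mir-222 the nearest was bta-mir-1468, 1693971 nt upstream on the same strand in cow, and fca-mir-532, 3212923 nt upstream on the opposite strand in cat. RefSeq places MIR221 and MIR222 inside the uncharacterised long noncoding gene LOC132344329, between the coding genes ZNF674 and DIPK2B.

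**Figure D3:**
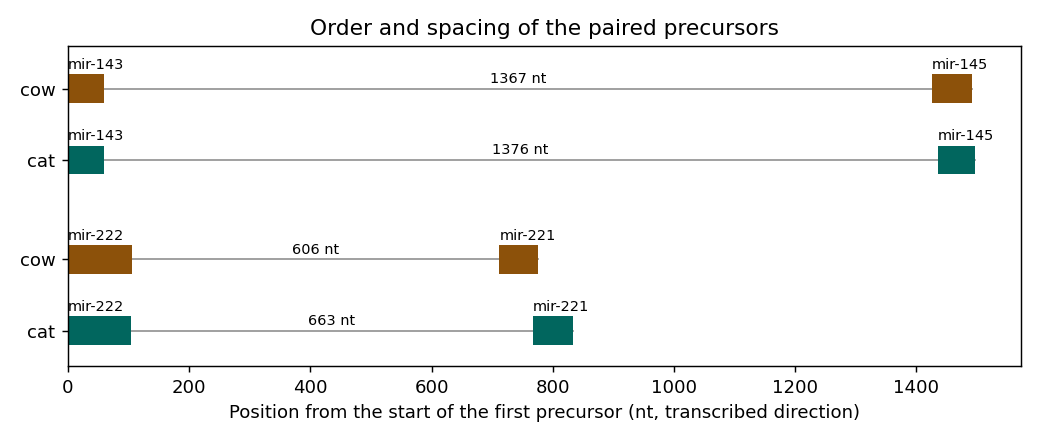
Order and spacing of the paired precursors in cow (brown) and cat (green), drawn to scale in the transcribed direction, with position in nt from the start of the first precursor on the horizontal axis and boxes for the precursors. The mir-143 to mir-145 gap is 1367 nt in cow and 1376 nt in cat, and the mir-222 to mir-221 gap is 606 and 663 nt.

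Pairs of loci adjacent on the same strand in cow were taken, with matching names and a bovine gap of at most 10 kb. A pair counted only if its feline loci also shared a sequence and a strand, so pairs split in cat were left out. This left 35 pairs, and the order in the transcribed direction was the same in cow and cat in all 35. The ratio of the bovine to the feline gap had a median of 0.984 and ranged from 0.360 to 1.497. It was 0.993 for mir-143 and mir-145, and 5 of the 35 pairs had a ratio closer to 1. It was 0.914 for mir-222 and mir-221, and 25 pairs had a ratio closer to 1. By this measure the gap of the first pair was among the more alike and that of the other among the less alike. Even so, 27 of the 35 pairs, both vascular pairs included, were within 10% of equality. These gaps run between precursor ends, so they also depend on where each span was drawn. Distances between 5p starts were not ranked over the 35 pairs.

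**Figure D4:**
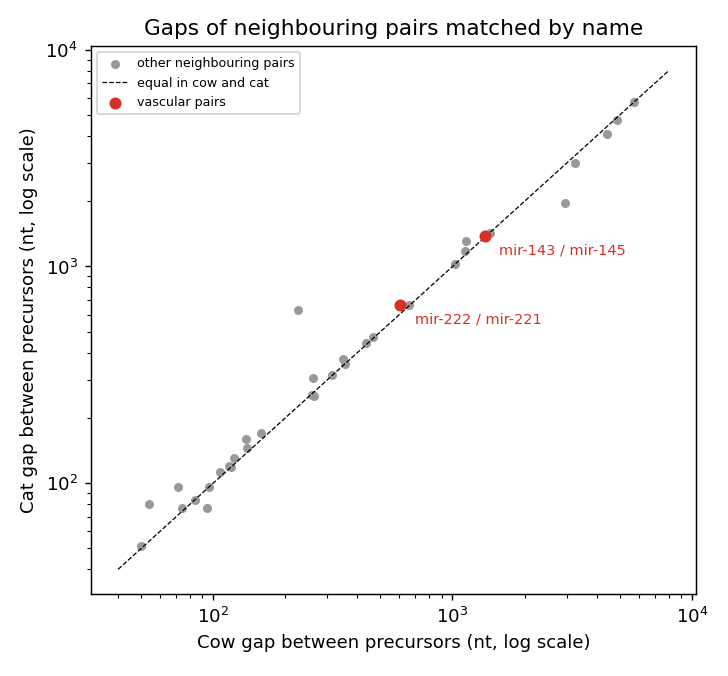
Gap between neighbouring precursors in cow (horizontal axis, nt) and cat (vertical axis, nt) on log scales for 35 pairs matched by name, with the 2 vascular pairs in red and equality as a dashed line. The mir-143 pair lies on the line and the mir-222 pair slightly above it, with the longer gap in cat.

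The only product whose length differed between cow and cat was the 5p product of mir-221. It had 23 nt in cow (103538859 to 103538881) and 26 nt in cat (40063166 to 40063191), and it left 17 bases before the 3p product in cow and 14 in cat. The starts of both products kept their distance of 40 nt. Counted from these starts, the 3 additional bases of the 5p product lie at its 3′ end, and the seed is at the other end. Sequences were not compared, so it is not shown that the product starts at the same base in both species. Products of 26 nt or more were rare, with 5 of 1397 in the bovine and 6 of 820 in the feline set (0.36% and 0.73%). Both products had the same length in cow and cat in 98 of the 162 matched loci (60.5%, interval 52.5 to 68.1%), and in 4 of the 5 vascular families. The 3p product of mir-221, the arm known as its main product, had 22 nt in both species (103538899 to 103538920 in cow, 40063130 to 40063151 in cat).

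The related mir-222 differed from mir-221 in how its span was drawn. Its precursor had 106 nt in cow and 104 nt in cat, against 63 and 66 nt for mir-221, and 24 and 23 bases preceded the 5p product. Another 20 and 19 bases followed the 3p product. With the length of mir-222 itself as the cut-off, 16 bovine loci (1.98%) and 13 feline loci (2.63%), mir-222 included, were at least as long. A long stretch before the 5p product was less rare. Of loci with both arms, 70 of 587 in cow (11.9%) and 27 of 325 in cat (8.31%) had at least 20 bases there. From 5p start to 3p end, however, both paralogs spanned 62 nt in both species. Within that span the 5p and 3p products of mir-222 had 21 and 24 nt, and mir-221 had a longer 5p and a shorter 3p product. A product of 24 nt was uncommon, at 2.79% of bovine and 4.02% of feline products, while 22 nt was the length of 48.2% in each set. The bovine mir-222 products lie from 103538171 to 103538191 (5p) and from 103538209 to 103538232 (3p), the feline from 40063916 to 40063936 (5p) and from 40063875 to 40063898 (3p).

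Long leading stretches of this kind were often called in 1 species alone. Of the 162 matched loci with both arms, 28 had at least 20 bases before the 5p product in cow and 21 in cat, and 11, among them mir-222, had them in both. Precursor length over the 192 matched loci differed by -44 to 48 nt as cow minus cat, and by more than 10 nt at 35 loci. For the vascular families the difference was -3 nt for mir-126, 0 nt for mir-143, 3 nt for mir-145, -3 nt for mir-221 and 2 nt for mir-222. A difference of 3 nt or less was found at 62.5% of matched loci and equal length at 67 of 192 (34.9%, interval 28.2 to 42.1%), against 1 of 5 here.

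**Figure D5:**
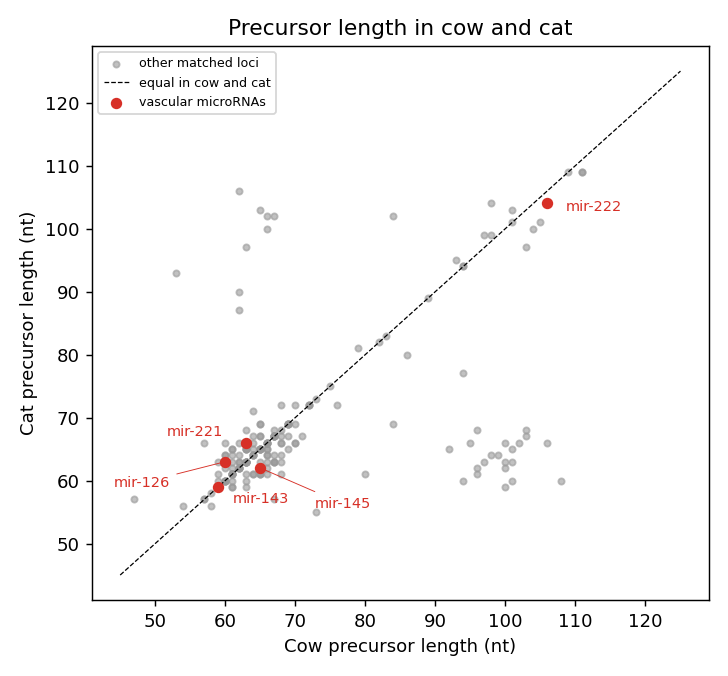
Length of the predicted precursor in cow (horizontal axis, nt) and cat (vertical axis, nt) for 192 loci matched by name, with the vascular microRNAs in red and equality as a dashed line. The vascular loci lie within 3 nt of the line, while other loci had a long span in 1 species and a short one in the other, and mir-222 is long in both (106 and 104 nt).

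Both arms gave a product at all 10 loci, against 587 of 810 loci in the bovine set (72.5%, interval 69.3 to 75.5%) and 325 of 495 in the feline set (65.7%, interval 61.3 to 69.8%). Those shares include many loci without known homology. Of the 192 loci matched by name, 162 had products from both arms in both species, so both arms were usual for such loci. In each species 4 of the 5 loci lay in a cluster, against 235 of 810 (29.0%, interval 25.9 to 32.3%) and 165 of 495 (33.3%, interval 29.2 to 37.7%). The families were chosen by name and hold pairs known as neighbours, so this count was set by the choice. All 5 families were on the plus strand of the bovine and the minus strand of the feline sequence, and 68 of the 192 matched loci (35.4%, interval 28.7 to 42.6%) were on opposite strands. Each pair shares a strand, so this is a statement about 3 places in the genome, and the strand depends on the direction in which an assembly numbers a chromosome.

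The deposited sets list the products of a locus in an order that is not sorted by position, and the sources used here do not say what orders them. The 5p product came first for mir-126 and mir-145 in both species, and the 3p product came first for mir-143 and mir-222 in both. For mir-221 the 3p product was listed first in cow and the 5p product, the one of 26 nt, in cat. The same arm was first in cow and cat at 142 of the 162 matched loci (87.7%, interval 81.6 to 92.3%).

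Other families known from vessels were present in both sets. Of 10 families of endothelium and angiogenesis (mir-10, mir-27, mir-92, mir-130, mir-132, mir-146, mir-155, mir-181, mir-210 and mir-296), all had a locus in both species, 21 loci in cow and 20 in cat. All 21 bovine loci and 18 of the 20 feline loci had products from both arms. The feline exceptions were the locus of mir-155, a microRNA of inflammation, and 1 of 2 loci of mir-92. Of 8 families known from smooth muscle (mir-1, mir-21, mir-26, mir-31, mir-133, mir-195, mir-204 and mir-490), all had a bovine locus and 7 had a feline locus, 13 loci in each species. Products came from both arms at all 13 bovine and 12 feline loci, and the feline exception was 1 of 4 loci of mir-133. The paper reports members of mir-1 and mir-133 as more abundant in feline skeletal muscle than in skin, so these families are not particular to smooth muscle. Over all numbered families, 186 of 303 bovine families (61.4%) had a feline locus and 186 of 208 feline families (89.4%) had a bovine locus. The listed families are long known and were chosen for it, so their presence in both sets says nothing particular to vessels. The family without a feline call was mir-490, and a family that was not called is not shown to be unexpressed in cat.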

How the data were processed

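Small RNA was sequenced from bovine and feline tissues. The authors trimmed reads with cutadapt 1.15, aligned them with Bowtie (reads matching more than 10 genome positions were dropped) and called loci with miRWoods on the pooled libraries of a species. The deposited values are genomic starts and ends, counted from 1, and hold no read counts. The sources used here name no genome build, and neither a genome nor a table of microRNA sequences was used. RefSeq names come from ARS-UCD2.0, where the bovine loci have other positions, so none of these is given.

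Offsets were counted in the transcribed direction. Loci were matched between species by their whole name without species and new-member mark, where 1 locus in each species had it. Clusters join precursors at most 10 kb apart. No test was run, since each species has 1 call set. Intervals are 95% exact binomial, cover counting error only and treat loci as independent, which neighbours and paralogs are not. All members are named, and other loci only as nearest neighbours or members of the list of vascular families. Members, list and rules were chosen with earlier results of these data known. Computations used Python 3.11.15 and scipy 1.17.1, and figures matplotlib 3.10.9. The steps that find clusters and product positions were tested on simulated lists, and the other steps were not.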

Additional observations from a re-analysis of the deposited data

How the results depend on the processing

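Of 24 alternative values, 14 stayed as reported or within the limits set for them, and 10 moved. The 14 include a change from 10 to 9 loci with both arms. Those that moved include the distances between 5p starts, which are a different quantity from the gap. The tally is therefore not a measure of how stable the results are. With clusters at 1 kb, 4 of the 10 loci lay in a cluster, those of mir-221 and mir-222, since the mir-143 to mir-145 gap is longer than 1 kb. At 5 kb, at 50 kb, on the same strand alone and with distances between precursor starts it was 8, as reported at 10 kb. Between 5p starts in place of precursor ends, the pairs were 1423 nt (cow) and 1431 nt (cat) apart for mir-143 and mir-145, and 688 nt and 745 nt for mir-222 and mir-221. The cow minus cat difference in length became 0 for mir-126, mir-145, mir-221 and mir-222 when the span ran from 5p start to 3p end. Counting the bases between the products in place of the distance between starts gave a difference of 3 nt for mir-221, by the longer feline 5p product. With products of 20 to 24 nt alone, 9 of 10 loci had both arms. Matching loci by family number and letter gave 78.2% with equal distance between arms and 74.4% with equal product span over 133 loci, and 35.2% with equal precursor length over 162. No library could be left out, because each call set pools its libraries, and read numbers per library, which the call sets do not hold, were not used here.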
